A study of Picea abies with 40 samples.

Results

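Zone 2 was set against zone 1 in Norway spruce (Picea abies) seedling roots, a comparison of the second segment behind the root tip with the segment that holds the tip itself. The members are the libraries whose labels name zone 2 or zone 1, 5 of each and so 10 of the 40 libraries of the series. All came from untreated root tissue of seedlings kept on plates for about 2 days after germination, and the labels give no genotype or seed source. The root was cut from its end into 4 segments, 3 of them 1 mm and 1 of them 2 mm long, and each segment was sequenced as bulk RNA. The genes that differed were then followed into zones 3 and 4, with 5 libraries each, and into 5 kinds of laser-captured tissue with 4 libraries each: stele 1, stele 2, stele 3, ground tissue and the QC area. QC is written as the labels have it. The labels put captured stele tissue in zones of elongation and differentiation, but do not say which stele is which, how many seedlings went into a library, or which segment is the longer one.

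A growing root is ordered along its length. Dividing cells lie at the end behind the root cap, these cells lengthen farther back, and they take on their final types farther back again. The stele is the central cylinder in which the conducting tissue forms, and the ground tissue surrounds it. A whole segment mixes all of these tissues, whereas laser capture cuts chosen tissue from a section. The deposited counts carry gene IDs with no names, so genes are given by ID, and the segment and tissue labels could not be checked against marker genes.

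Library totals were 3.53 to 5.77 M counts in zone 2 and 4.40 to 6.25 M counts in zone 1. Replicates of whole segments were close to each other, with a biological coefficient of variation, the spread beyond counting noise, of 16.5% in zone 2 and 12.8% in zone 1. It was larger in captured tissue, from 31.4% in ground tissue to 67.9% in stele 2. All zone libraries came from sequencing lane 3, and all pairs of replicates within zone 2 and within zone 1 differed by more than counting noise. Nothing in the labels says that replicates came from separate seedlings, so p-values measure the spread between libraries, which may be technical. Captured libraries were spread over lanes 7 and 8: the QC area was in lane 8 and stele 2 in lane 7, and the other regions were in both. By the share of counts held by the genes that differ, zone 2 replicate 2 lay toward zone 1 and zone 2 replicate 3 away from it, and zone 3 replicate 2 lay toward zone 2. Counts without each of these libraries stand beside the counts for the zones they belong to.

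Most of the tested genes differed between zone 2 and zone 1. Of 27767 genes with enough counts to test, 7799 were higher in zone 2 and 7663 were lower, which is 55.7% of tested genes, 28.1% in the upward and 27.6% in the downward direction (edgeR quasi-likelihood test, Benjamini-Hochberg adjusted p under 0.05). In whole segments, a change in the share of cells of a type and a change in RNA per cell cannot be told apart. Without zone 2 replicate 2 the counts were 8023 higher and 7633 lower, and without zone 2 replicate 3 they were 7337 and 7039. All 5 zone 2 libraries lay above all 5 zone 1 libraries for 5528 of the genes called higher (70.9%), and below them for 5735 of those called lower (74.8%). Over all tested genes, zone 2 lay fully above zone 1 for 20.2% and fully below it for 21.0%. The near balance in direction rests on the scaling of the libraries: 45.6% of called genes were higher with DESeq2's size factors and 50.4% with the TMM factors used here.

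The 2 directions differed at the far end. The median fold was 1.92 for genes higher in zone 2 and 1.86 for genes lower in zone 2, but more genes lay far out on the upward side. An increase of 8-fold or more was seen for 911 genes (11.7% of those higher), and a decrease of that size for 172 genes (2.24% of those lower). Between 2-fold and 4-fold the order was the other way, with 1993 genes higher and 2538 lower. The filter on low counts looked at all 4 zones, so a gene scarce in zones 2 and 1 could be tested because it was high in zones 3 or 4. With zones 2 and 1 alone in the fit, 472 genes were higher and 158 lower by 8-fold or more, and with no filter 1210 and 454. Changes of at least 2-fold numbered 3700 upward and 3282 downward, which is 13.3% and 11.8% of tested genes. The order of these 2 counts turned round with zones 2 and 1 alone (2812 upward, 3034 downward), with the replicate block added to that fit (2810 and 3056), with DESeq2's size factors (3442 and 3652) and with DESeq2 (3562 and 3693).

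**Figure D1:**
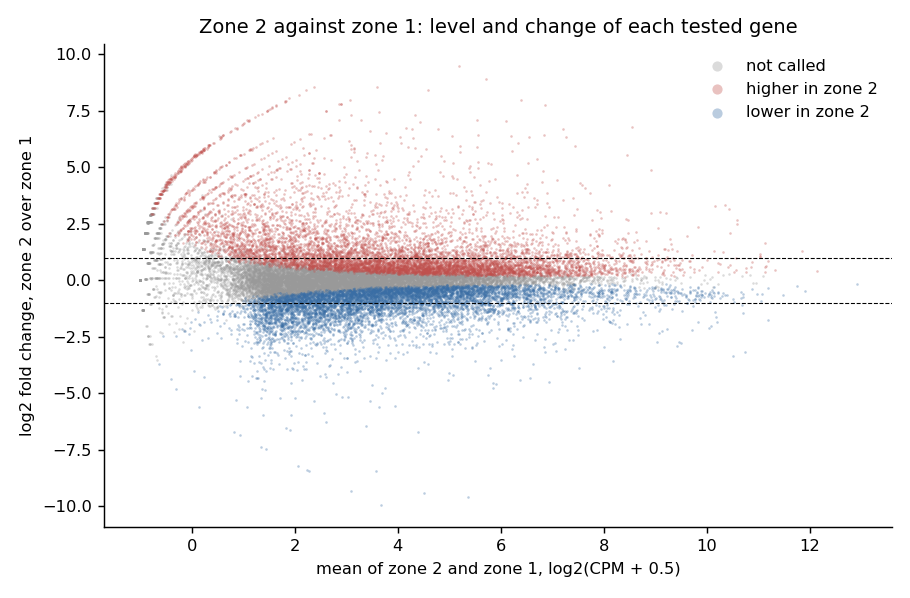
Log2 fold change of zone 2 over zone 1 (y axis) against the mean level of both zones (x axis, log2 of CPM plus 0.5) for all 27767 tested genes. Red points are the 7799 genes higher in zone 2, blue points the 7663 lower ones, grey points were not called, and dashed lines mark 2-fold; the upper tail reaches farther from 0 over more genes than the lower one.

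The share of genes called grew with the counts behind a gene. Genes were split into 4 equal groups by their mean CPM (counts per M) over all 4 zones. This level is not divided by gene length, and the zones behind zone 2 count toward it. There, genes higher in zone 2 held more of the counts than in zones 2 and 1, and genes lower in zone 2 held less. The part of this in the direction of calls by group was not tested. In the lowest group, at 0.674 to 3.77 CPM, 42.8% were called, and 34.1% of these were higher in zone 2. In the highest group, from 26.9 CPM upward, 72.2% were called, and 63.7% of these were higher in zone 2. The median size of a called change went the other way, at 1.5 on the log2 scale in the lowest group and 0.686 in the highest. Called changes were thus larger among genes with few counts. With few counts only a large change can reach the threshold, so these sizes and the shares called describe the calls, not the genes.

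Genes higher in zone 2 held 48.8% ± 3.23 of all counts in zone 2 and 26.5% ± 0.709 in zone 1 (SD, n = 5 each). Genes lower in zone 2 held 28.1% ± 2.93 of counts in zone 2 and 50.2% ± 0.627 in zone 1. These shares come from the genes that the comparison itself selected and are given as a description. Among zone 2 libraries the share of the higher genes was smallest in replicate 2, at 43.9%, and largest in replicate 3, at 52.8%. The share of the lower genes mirrored this, at 32.5% in replicate 2 and 24.5% in replicate 3. Farther back, the genes higher in zone 2 held 60.7% ± 1.08 of counts in zone 3 and 54.4% ± 1.36 in zone 4. The genes lower in zone 2 held 17.2% ± 0.953 in zone 3 and 17.9% ± 0.594 in zone 4. The shift was concentrated in part of these genes: summed over genes, CPM rose by 224076 and fell by 212997, and 50% of each sum came from 327 and 270 genes.

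Zone 2 libraries also detected more genes. At an equal depth of 3534236 counts, 34568 ± 259 genes had a count in zone 2 and 34080 ± 152 in zone 1 (SD, n = 5 each). Every zone 2 library lay above every zone 1 library, and the difference of 488 genes had p = 0.0079 in a two-sided exact permutation test, the smallest p that 5 against 5 libraries can give (adjusted p = 0.016 over 2 measures). At a depth of 1767118 counts the difference was 266 genes (exact permutation p = 0.063). The 100 highest genes held 16.943% ± 0.327 of counts in zone 2 and 17.501% ± 0.364 in zone 1. That difference of -0.558 percentage points (exact permutation p = 0.04, adjusted p = 0.04) was lost without any 1 of 7 of the 10 libraries, and the 10 highest genes gave 0.0696 percentage points.

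The genes with the largest gain in CPM were MA_273360g0010 and MA_10426186g0010. MA_273360g0010 had 5348, 4606, 5342, 5211 and 5488 CPM in the zone 2 libraries, against 1714, 2017, 2448, 2061 and 2406 CPM in the zone 1 libraries. All zone 2 libraries were above all zone 1 libraries, and the log2 fold change was 1.29 ± 0.0989 SE (edgeR adjusted p = 2.19e-10). Its level peaked in zone 3, at 8161 CPM, and was 4645 CPM in zone 4. In captured tissue its mean was 4600, 9730 and 13510 CPM in steles 1, 2 and 3, 2089 CPM in ground tissue and 1947 CPM in the QC area. It was called higher in stele 1 than in the QC area (log2 fold change 1.24 ± 0.298, edgeR adjusted p = 0.00982) and higher in stele 2 than in stele 1 (1.08 ± 0.297, edgeR adjusted p = 0.0141). Stele 1 replicate 1, at 7939 CPM, lay apart from the other stele 1 libraries, at 2589 to 4010 CPM. Libraries overlapped in both comparisons. QC area replicate 1, at 2873 CPM, lay above stele 1 replicate 3, at 2589 CPM, and stele 2 replicate 3, at 6933 CPM, lay below stele 1 replicate 1.

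MA_10426186g0010 had 2954, 3741, 3250.0, 3353 and 3668 CPM in zone 2, against 1009.7, 986, 1258, 1142 and 1073 CPM in zone 1. The zones did not overlap, and the log2 fold change was 1.63 ± 0.254 (SE, edgeR adjusted p = 8.65e-06). Unlike MA_273360g0010 it was highest in zone 2 of the 4 zones. The means in zones 3 and 4 were 1599 and 204 CPM, and both steps were called lower (edgeR adjusted p = 0.000887 and 4.49e-09). Zone 3 replicate 2, at 3159 CPM, fell within the zone 2 range, while the other zone 3 libraries ran from 871 to 1548 CPM. In the QC area it was low, at 52.8 to 69.2 CPM, against 342 to 1089 CPM in stele 1 and 695 to 1422 CPM in ground tissue. Both differences from the QC area were called, at log2 fold changes of 3.60 ± 0.308 for stele 1 and 3.98 ± 0.313 for ground tissue (edgeR adjusted p = 3.89e-06 and 1.9e-06). The lane 8 libraries alone were also separate, with 342 and 1089 CPM in stele 1 and 695 to 1422 CPM in ground tissue.

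The genes with the largest loss in CPM were MA_460451g0010 and MA_182721g0010. MA_460451g0010 had 462, 460.1, 174, 243 and 370.4 CPM in zone 2, against 2716, 3623, 2741, 2717 and 3468 CPM in zone 1. The groups were far apart, at -3.16 ± 0.256 SE on the log2 scale (edgeR adjusted p = 5.08e-10). It was at 184 CPM in zone 3, where the step from zone 2 was also called lower (edgeR adjusted p = 0.00353), and at 213 CPM in zone 4. The captured regions held little of it, with means of 7.32 CPM in stele 1, 7.39 CPM in ground tissue and 14.4 CPM in the QC area. Stele 2 and stele 3 had a count in 1 library each. At least 2716 CPM in every tip segment library thus stood beside at most 19.0 CPM in any captured library, on tables that were scaled separately.

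MA_182721g0010 had 1045, 1332, 873, 956 and 1176 CPM in zone 2, against 2745, 3994, 3786, 3393 and 4092 CPM in zone 1. It did not overlap between the zones (log2 fold change -1.74 ± 0.283 SE, edgeR adjusted p = 1.54e-05), and it was lower again at each later step, with 326 CPM in zone 3 and 35.7 CPM in zone 4 (edgeR adjusted p = 2.27e-05 and 1.63e-08). Its captured levels were low and uneven. Ground tissue ran from 6.74 to 85.8 CPM, and the QC area ran from 0.106 to 21.6 CPM. No captured comparison of this gene was called.

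**Figure D2:**
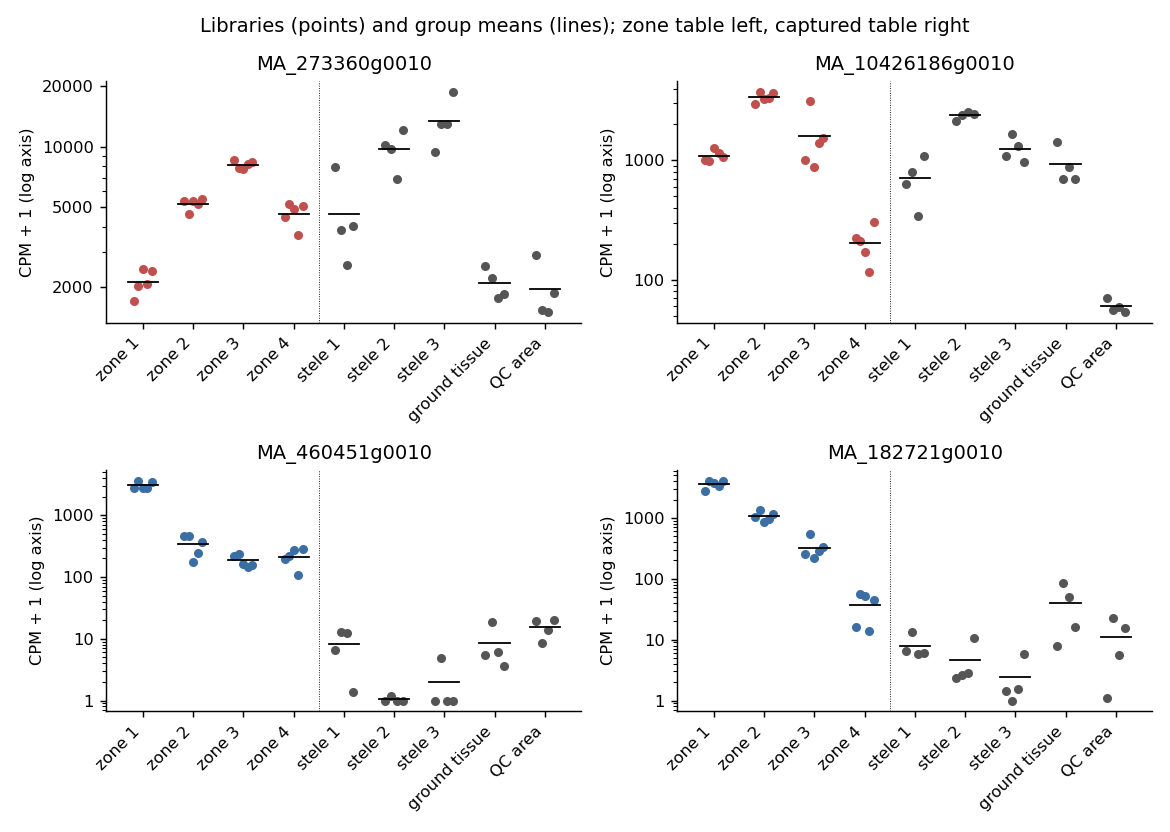
CPM plus 1 on a log axis in each library (points) and group means (lines) for the 2 genes with the largest rise in CPM in zone 2 over zone 1 (red) and the 2 with the largest fall (blue); grey points are captured regions, scaled separately from the zones. MA_10426186g0010 is at 52.8 to 69.2 CPM in the QC area and at 342 CPM or more in all other captured libraries, and MA_460451g0010 is at 2716 CPM or more in zone 1 but at most 19.0 CPM in any captured library.

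Some genes had counts in zone 2 and none in zone 1. For 132 genes there was no count in any zone 1 library, while every zone 2 library had a count and zone 2 had at least 10 in all. With a floor of 3 counts over the group, no count in zone 1 allows up to 0.112 CPM, a limit that covers counting error only, because PCR copies were not told apart. The levels in zone 2 were low, with a median of 1.10 CPM, and 105 of the 132 passed the filter on low counts. These genes had to be called, so no count of calls is given for them. The median was 6.71 CPM in zone 3 and 6.91 CPM in zone 4, and all 132 had a count in both. In the captured regions their presence was uneven: 116 had a count in stele 2 and 119 in stele 3, against 53 in stele 1, 31 in ground tissue and 19 in the QC area. The share of all genes with a count in each region was not counted. The median level was 8.15 CPM in stele 3, 2.02 CPM in stele 2 and 0 in the other 3 regions.

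The reverse set was smaller. For 54 genes every zone 1 library had a count, at least 10 in all, and no zone 2 library had any, which allows up to 0.121 CPM in zone 2. Only 11 of them passed the filter, and the median in zone 1 was 0.804 CPM. A count was seen for 21 of them in zone 3 and for 24 in zone 4. Captured counts were seen for 31 of them in stele 1, 13 in stele 2 and 6 in stele 3, and for 39 in ground tissue and 41 in the QC area. The order of the regions was thus the reverse of that for the 132 genes. Over all genes, too, stele 3 libraries had a count for fewer genes (27332 to 29682) than QC area libraries (30139 to 33578). The order for the 54 genes thus went the same way at its ends as that of all genes. Pooled totals were 21.3 M counts in stele 3 and 41.3 M in the QC area, and the part of depth in the presence of the 54 and of the 132 genes was not tested.

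Most genes lower in zone 2 had their highest mean in zone 1, while genes higher in zone 2 had their highest mean in different zones. Of the 7799 higher genes, 21.6% had their highest mean in zone 2, 39.4% in zone 3 and 39.1% in zone 4. Of the 7663 lower genes, 90.1% had it in zone 1 and 9.12% in zone 4. Over all tested genes the shares were 36.4% in zone 1, 11.9% in zone 2, 18.3% in zone 3 and 33.4% in zone 4. By the choice of genes, the first set cannot peak in zone 1 and the second cannot peak in zone 2.

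At the step from zone 2 to zone 3, 3686 of the genes higher in zone 2 were called higher again (47.3%) and 785 were called lower (10.1%). Of the genes lower in zone 2, 4548 were called lower again (59.4%) and 555 higher (7.24%). Without zone 3 replicate 2 these counts were 3903 higher and 866 lower in the first set, and 4523 lower and 561 higher in the second. With the replicate number as a block, in a fit of zones 3 and 2 alone, they were 3096 and 1004, and 3553 and 425. Over all tested genes that step called 52% of genes, 26.2% higher and 25.8% lower. It shares the 5 zone 2 libraries with the comparison that chose the genes, so these counts are a description.

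The step from zone 3 to zone 4 shares no library with zone 2 against zone 1, and here the 2 sets did not carry on in their first direction. Over all tested genes it called 48.9%, 26.1% higher in zone 4 and 22.8% lower. Of the genes higher in zone 2, 1801 were higher in zone 4 than in zone 3 (23.1%) and 2970 were lower (38.1%), with a median log2 fold change of -0.147. Of the genes lower in zone 2, 1698 were higher (22.2%) and 1348 lower (17.6%), with a median of 0.0674. The median of all tested genes was 0.0373. Total counts in place of TMM factors moved the median of all genes to 0.141. Across 27767 genes the fold changes of these 2 comparisons had a Spearman correlation of -0.0917, given as a description, with the 20 libraries sharing lane and preparation.

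Joining both later steps, the commonest course of a gene higher in zone 2 was a further rise in zone 3 and no call in zone 4, with 1414 genes (18.1%). Nearly as many, 1353 genes (17.3%), had no call at either later step. Of the genes not called between zone 2 and zone 1, 35.7% had no call at either later step. A rise into zone 3 followed by a fall into zone 4 was seen for 1277 (16.4%), and no call followed by a fall for 1286 (16.5%). All 3 steps were called higher for 995 genes (12.8%). A fall at both later steps, so that zone 2 stood above its neighbours, was seen for 407 (5.22%). Of the genes not called between zone 2 and zone 1, 12.5% were called higher at both later steps and 4.05% lower at both. The 12.8% and 5.22% were near these shares. A gene lower in zone 2 most often fell again into zone 3 and was then not called, with 2811 genes (36.7%). No call at either later step came next, with 1604 genes (20.9%). All 3 steps were called lower for 958 (12.5%), and 779 (10.2%) fell again and then rose into zone 4. A call against the first direction at 1 or both later steps was made for 3348 of the higher genes (42.9%), where 41.9% of all tested genes were called lower at 1 or both of these steps. For the lower genes it was made for 1948 (25.4%), where 42.1% of all tested genes were called higher.

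The genes with the largest CPM changes at the zone 4 step show 4 such courses. MA_201611g0010, higher in zone 2, had 113, 166, 869 and 2313 CPM as means of zones 1 to 4, and each step was called higher. Its zone 2 libraries, at 188, 89.8, 277, 138 and 139.9 CPM, overlapped the zone 1 libraries, at 96.4 to 134 CPM, and zone 2 replicate 3 was the highest (log2 fold change 0.56 ± 0.215 SE, edgeR adjusted p = 0.0318). MA_10427724g0030 had 236, 2378, 3694 and 1046 CPM over the 4 zones. Its zone 2 libraries ran from 2004 to 2709 CPM, against 135 to 383 CPM in zone 1 (log2 fold change 3.33 ± 0.224, edgeR adjusted p = 2.58e-11), and zone 4 lay fully below zone 3 (-1.82 ± 0.21, edgeR adjusted p = 1.89e-07).

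MA_79244g0010 dipped in zone 2. Its means were 468, 226, 663 and 1415 CPM over zones 1 to 4, with 162 to 285 CPM in zone 2 libraries and 375.0 to 586 CPM in zone 1 libraries (log2 fold change -1.05 ± 0.216, edgeR adjusted p = 0.000239). Zone 3 replicate 2, at 284 CPM, lay among the zone 2 libraries, while the other zone 3 libraries ran from 557 to 1003 CPM. MA_130823g0010 fell along the whole series, at 2087, 1237, 468 and 46.9 CPM. Zone 2 libraries ran from 1095 to 1448 CPM and zone 1 libraries from 1762 to 2252 CPM (log2 fold change -0.75 ± 0.244, edgeR adjusted p = 0.0113), and zone 4 was below zone 3 by a log2 fold change of -3.31 ± 0.273 (edgeR adjusted p = 1.11e-09). Zone 3 replicate 2, at 790.3 CPM, was again nearest to zone 2.

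The captured regions share no library with the zones, although the labels do not say whether both came from the same seedlings. Of the 7799 genes higher in zone 2, 6820 had enough captured counts to test, and of the 7663 lower genes 7100 did. No captured library had a count for 90 of the higher and 83 of the lower genes. The calls below are read against all 27239 genes tested in the captured table and against the 23730 of them that were tested in the zones.

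Stele 1 against the QC area split the 2 sets by direction. This comparison called 9.45% of captured genes, 8.42% higher and 1.03% lower in stele 1. Of the genes higher in zone 2, 1880 were higher in stele 1 (27.6%) and 17 were lower (0.249%), with a median log2 fold change of 0.716. Of the genes lower in zone 2, 25 were higher in stele 1 (0.352%) and 170 were lower (2.39%), with a median of -0.267. Among all genes tested in the zones 9.08% were higher and 0.952% lower, and their median was 0.0659. The QC area libraries were all in lane 8 and stele 1 had 2 libraries there. Within lane 8, 505 genes of the first set were higher and 12 lower, and 9 genes of the second set were higher and 115 lower. Without QC area replicate 3 the count of higher genes in the first set was 1253, and without stele 1 replicate 1, 2 or 4 the count of lower genes in the second set was 80 to 92. Leaving out QC area replicates 1 to 4 in turn put that count at 102 to 112. The small counts against these directions also moved. The 17 became 10 or 11 without stele 1 replicate 1, 2 or 4 or QC area replicate 2, 3 or 4, and 36 without stele 1 replicate 3. The 25 became 9 without QC area replicate 3, and 13 to 15 without QC area replicate 2 or 4 or stele 1 replicate 1 or 4.

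Ground tissue against the QC area had fewer calls, with 4.74% of captured genes called, 3.23% higher and 1.51% lower in ground tissue. Of the genes higher in zone 2, 672 were higher in ground tissue (9.85%) and 127 lower (1.86%). Of the genes lower in zone 2, 35 were higher and 135 lower (1.90%). All genes tested in the zones stood at 3.60% higher and 1.47% lower, so the 1.90% was near the share of all genes. Within lane 8, with 3 ground tissue libraries, the numbers were 738 and 152 for the first set and 70 and 325 for the second. Without ground tissue replicate 1 the 672 became 388, and without QC area replicate 2 they became 432. The 135 lower genes of the second set became 65 to 86 without ground tissue replicates 1, 3 or 4 or QC area replicates 1 or 2. The 35 became 15 to 21 without ground tissue replicate 1 or QC area replicate 1, 2 or 3, and the 127 became 82 without QC area replicate 1. The difference between this split and that of stele 1 was not tested.

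Stele 1 against ground tissue compared the central cylinder with the tissue around it. It called 6.03% of captured genes, 4.78% higher and 1.25% lower in stele 1. Of the genes higher in zone 2, 897 were higher in stele 1 (13.2%) and 155 lower (2.27%). Genes lower in zone 2 gave 72 higher (1.01%) and 71 lower (1.00%) in stele 1, and all genes tested in the zones stood at 4.96% and 1.39%. Lane 7 gave 293 higher genes of the first set, with 2 libraries against 1, and lane 8 gave 196, with 2 against 3. Without stele 1 replicate 1 the 897 became 575, and without ground tissue replicate 1 the 155 became 95. The 72 and 71 were 76 and 126 with these 2 groups alone in the fit, 62 and 125 with the replicate block added, and 92 and 126 with DESeq2. The 72 became 41 to 46 without stele 1 replicate 1 or ground tissue replicate 1, 2 or 3. The 71 became 35 to 46 without stele 1 replicate 1, 2 or 4 or ground tissue replicate 1, 2 or 3.

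Stele 2 against stele 1 split the 2 sets by direction on both sides. It called 21.4% of captured genes, 12.4% higher and 8.97% lower in stele 2. Of the genes higher in zone 2, 2541 were higher in stele 2 (37.3%) and 13 were lower (0.191%), with a median log2 fold change of 0.841. Of the genes lower in zone 2, 75 were higher (1.06%) and 2030 were lower (28.6%), with a median of -0.843. All genes tested in the zones stood at 13.4% and 9.26%. Stele 2 was in lane 7 only, where 2 stele 1 libraries gave 522 higher and 1 lower genes in the first set and 12 higher and 48 lower genes in the second. Without stele 1 replicate 3 the 2030 became 1257, the 75 became 47 and the 13 became 8, and without stele 2 replicate 4 the 13 became 7. Of all called genes 58% were higher in stele 2, and 46.3% with total counts in place of TMM factors. With total counts 2115 genes of the first set were higher and 2583 of the second were lower. Across 23730 genes the fold changes of zone 2 over zone 1 and of stele 2 over stele 1 had a Spearman correlation of 0.737. The same measure was 0.581 for stele 1 against the QC area, 0.404 for stele 3 against stele 2, 0.381 for stele 1 against ground tissue and 0.286 for ground tissue against the QC area. These are descriptions across genes, which are not independent replicates, and the captured comparisons share libraries with each other. The captured table heads its stele columns with zone codes, but the labels do not say that a stele was cut from the segment of the same number.

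Stele 3 against stele 2 had more genes called lower than higher over all captured genes. It called 13% of captured genes, 3.85% higher and 9.16% lower in stele 3. Of the genes lower in zone 2, 88 were higher (1.24%) and 1535 lower (21.6%), with a median log2 fold change of -0.640. The genes higher in zone 2 were mixed, with 532 higher (7.80%) and 281 lower (4.12%). That order turned round with total counts in place of TMM factors, at 312 higher and 530 lower. Of all called genes 29.6% were higher in stele 3 with TMM factors and 13.8% with total counts, where the median of all captured genes moved to -0.342 on the log2 scale from -0.111. All genes tested in the zones stood at 4.07% and 9.90%. Within lane 7, with 3 stele 3 libraries, the first set had 70 higher and 12 lower genes and the second 2 higher and 111 lower. The 532 became 273 without stele 2 replicate 3 and 299, 305 and 343 without stele 3 replicates 1, 3 and 4. The 88 became 51 to 53 without stele 2 replicate 1 or stele 3 replicate 1 or 3.

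**Figure D3:**
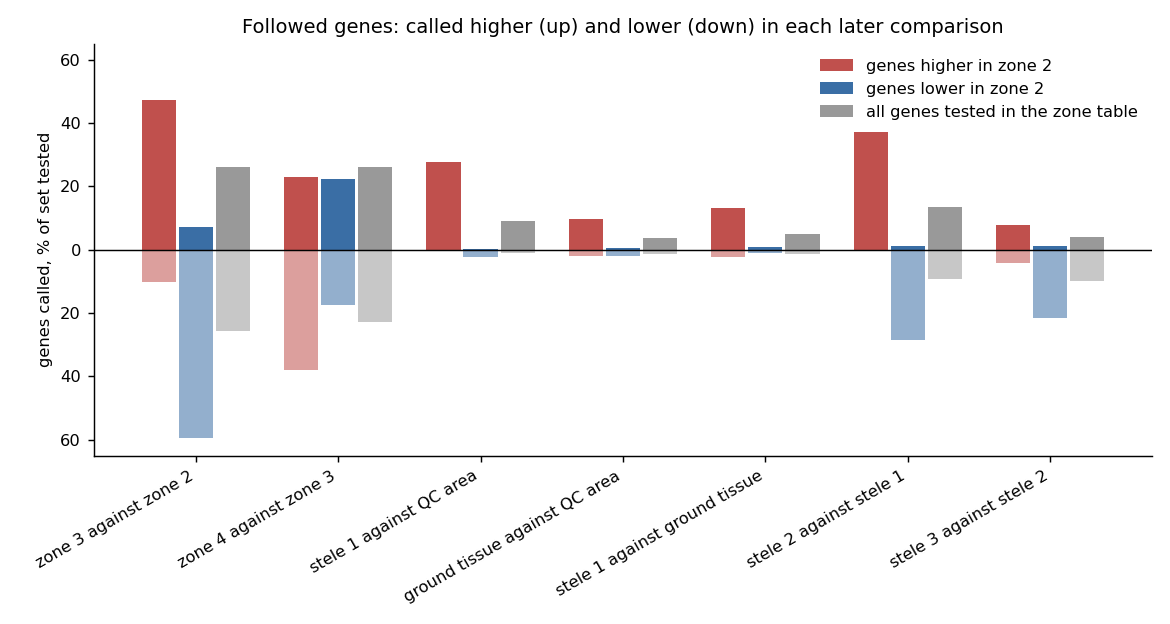
Percent of tested genes called higher (bars up) or lower (pale bars down) in each later comparison, for genes higher in zone 2 (red), genes lower in zone 2 (blue) and all genes tested in the zones (grey). In stele 2 against stele 1, 37.3% of the red set is higher and 28.6% of the blue set is lower, while in zone 4 against zone 3 the red set has more genes down (38.1%) than up (23.1%).

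The share of genes called in stele 2 against stele 1 grew with the size of the change between zone 2 and zone 1, and other comparisons had other forms. Among genes higher in zone 2 by less than 1.5-fold, 392 of 1994 were higher in stele 2 than in stele 1 (19.7%). Among those with 8-fold or more 510 of 667 were (76.5%) and 0 were lower, and 244 of 911 were not tested. The filter on low counts looked at all captured regions, so a gene with no count in stele 1 could be tested through stele 2. Such a gene could not be called lower in stele 2, and the part of the filter in these shares was not tested. For genes lower in zone 2, the share lower in stele 2 went from 13.7% at less than 1.5-fold to 61.8% at 8-fold or more. The share of genes higher in zone 2 that were higher in stele 1 was 14.4% below 1.5-fold, 44.0% between 4-fold and 8-fold and 36.6% at 8-fold or more. In ground tissue the same set stood at 6.07% below 1.5-fold, 14.6% between 2-fold and 4-fold and 7.80% at 8-fold or more. On the downward side the share lower in stele 1 stayed at 0.896% to 6.47% up to 8-fold, and was 32.7% (36 of 110) beyond it. The corresponding shares for ground tissue were 0.728% to 5.88% and 22.7%. In stele 3 against stele 2 the share lower was 15.5% below 1.5-fold, 28.2% between 2-fold and 4-fold and 10.9% (12 of 110) at 8-fold or more. Zone 4 against zone 3 ran the other way for the genes lower in zone 2: 29.5% of those below 1.5-fold were lower in zone 4, and 4.07% of those at 8-fold or more. A gene left with few counts in zone 3 or stele 2 can hardly be called lower at the next step. The part of this in the 4.07% and the 10.9% was not tested.

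**Figure D4:**
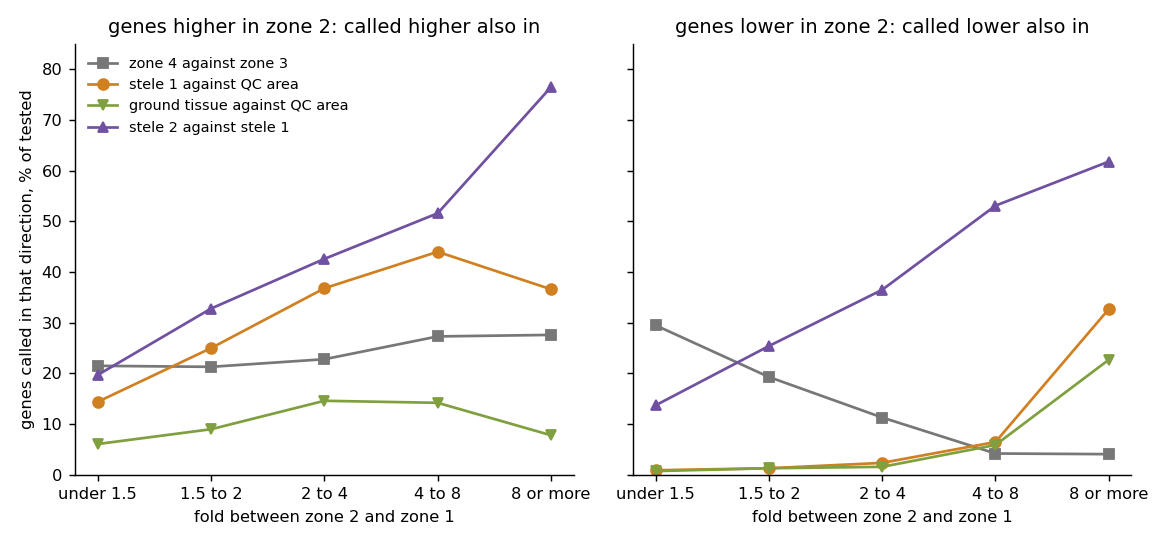
Percent of tested genes called in the same direction (y axis) in 4 other comparisons, by the fold between zone 2 and zone 1 (x axis), for genes higher in zone 2 (left) and lower in zone 2 (right). The line for stele 2 against stele 1 goes up on both sides, to 76.5% and 61.8%, and the lines for stele 1 and for ground tissue against the QC area on the right stay under 7% up to 8-fold and are at 32.7% and 22.7% beyond it.

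Genes grouped by their course along the zones had differing shares of calls in captured tissue. Of all genes tested in the zones, 9.08% were higher in stele 1 than in the QC area. In ground tissue against the QC area 3.60% were higher and 1.47% lower. In stele 2 against stele 1 these shares were 13.4% and 9.26%, and in stele 3 against stele 2 they were 4.07% and 9.90%. Of the shares below, 5.02% and 8.30% were near those of all genes. The 407 genes that stood highest in zone 2, with a fall at both later steps, had 401 members tested: 45.9% were higher in stele 1 than in the QC area, 28.2% were higher in ground tissue than in the QC area, and 26.4% were lower in stele 3 than in stele 2. The 995 genes that were called higher at all 3 steps had 817 tested, with 20.3%, 5.02% and 0.245% in those same 3 calls, while 51.5% were higher in stele 2 than in stele 1 and 17.7% higher in stele 3 than in stele 2. Of the 1277 genes that rose into zone 3 and fell into zone 4, 1122 were tested, and 59% of them were higher in stele 2 than in stele 1 and 0 lower. Here too a gene with no count in stele 1 could not be called lower in stele 2. The 958 genes called lower at all 3 steps had 929 tested, with 41.8% lower in stele 2 than in stele 1 and 35.3% lower in stele 3 than in stele 2. The 305 genes that dipped in zone 2 and were higher at both later steps had 229 tested. They were divided between stele 2 and stele 1 (7.42% higher, 8.30% lower), and 13.5% were lower in ground tissue than in the QC area. These classes were not tested against each other.

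Levels relative to each gene's own mean over the regions need no threshold, but they depend on the scaling. For genes higher in zone 2 the median was 0.901 on the log2 scale in stele 3, 0.673 in stele 2, -0.137 in stele 1, -0.477 in ground tissue and -0.855 in the QC area. For genes lower in zone 2 the order was reversed, at -1.17 in stele 3, -0.505 in stele 2, 0.379 in stele 1, 0.643 in ground tissue and 0.696 in the QC area. With total counts in place of TMM factors, an alternative chosen after seeing the data, the genes higher in zone 2 had medians of 0.586 in stele 3 and 0.583 in stele 2. The region with the highest mean was stele 3 for 57.5% of the higher genes and stele 2 for 28%, and the QC area for 1.55%. With total counts the shares were 45.6% for stele 3 and 32.4% for stele 2, and with DESeq2's size factors 60.4% and 24.4%. Among the lower genes it was the QC area for 48.1% and ground tissue for 33.9%. For all genes tested in the zones it was stele 3 for 30.8%, the QC area for 23.1% and ground tissue for 21%.

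**Figure D5:**
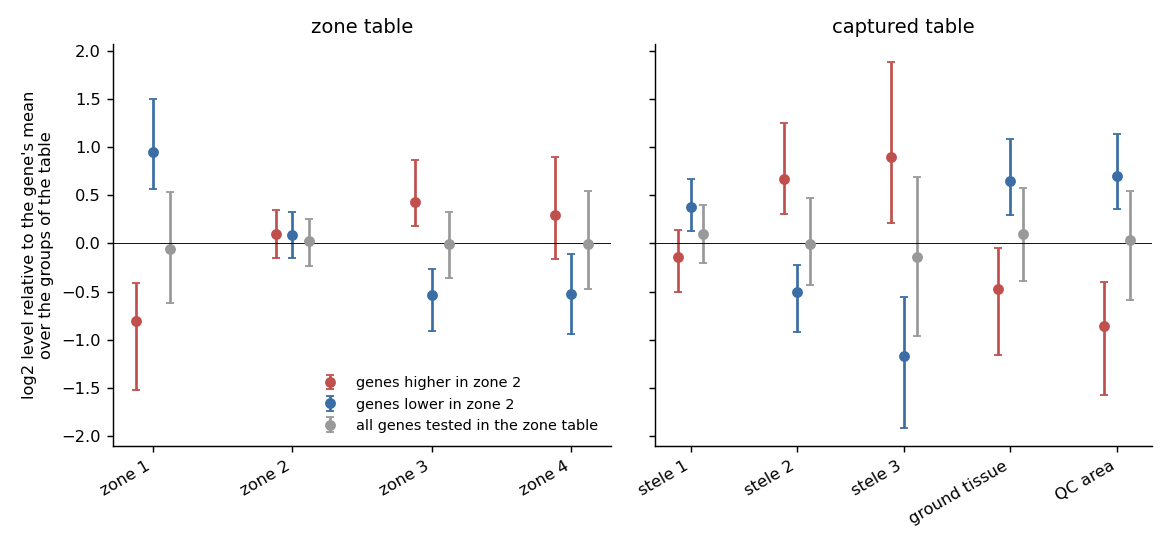
Median (points) and middle 50% of genes (bars) of the log2 level relative to each gene's mean over the groups of its table, for zones (left) and captured regions (right). In the captured table the genes higher in zone 2 (red) have medians from 0.901 in stele 3 to -0.855 in the QC area, the genes lower in zone 2 (blue) from -1.17 to 0.696, and all tested genes (grey) stay near 0.

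Single genes followed or broke these directions. MA_10427661g0030, higher in zone 2, had 2412 to 3151 CPM in zone 2, against 1209 to 1408 CPM in zone 1 (log2 fold change 1.09 ± 0.089 SE, edgeR adjusted p = 5.9e-10). It had 2790, 3019, 2160 and 3700 CPM in stele 1, against 1491, 1426, 1409 and 1336 CPM in the QC area, with no overlap (1.04 ± 0.157, edgeR adjusted p = 0.000258). MA_12320g0010 went the other way in captured tissue. It had 686 to 1088 CPM in zone 2 and 313 to 580.2 CPM in zone 1 (0.97 ± 0.18, edgeR adjusted p = 7.68e-05), but 11.9, 21.5, 116 and 7.43 CPM in stele 1, against 174, 129.9, 192 and 618 CPM in the QC area (-2.82 ± 0.74, edgeR adjusted p = 0.0176). Its ground tissue libraries ran from 199.9 to 838 CPM. The stele 1 call was lost without stele 1 replicate 1, 2 or 4 or QC area replicate 4 (log2 fold change -2.62 to -2.10, edgeR adjusted p = 0.052 to 0.0955) and within lane 8 (-2.21, edgeR adjusted p = 0.29). It was also lost with these 2 groups alone in the fit (-2.88, edgeR adjusted p = 0.0609) and with the replicate block added (-3.36, edgeR adjusted p = 0.0557).

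MA_10432802g0010, lower in zone 2, had 73.3 to 113 CPM in zone 2, against 219 to 321 CPM in zone 1 (log2 fold change -1.56 ± 0.23 SE, edgeR adjusted p = 4.03e-06). As 1 of the 25 genes of its set called that way, it was higher in stele 1, at 269.6, 75.8, 29.0 and 106 CPM, than in the QC area, at 7.40, 6.69, 8.24 and 17.6 CPM (3.59 ± 0.558, edgeR adjusted p = 0.000327). It was also higher in zone 4 than in zone 3 (2.30 ± 0.238, edgeR adjusted p = 3.84e-08). MA_25199g0020 was highest in zone 1 among the zones and in the QC area among captured regions. It had 0.840, 0.896, 0, 0 and 0.190 CPM in zone 2, against 10.6, 13.1, 14.4, 14.0 and 10.8 CPM in zone 1 (-5.02 ± 0.514, edgeR adjusted p = 2.08e-08). It had 77.2, 42.2, 88.0 and 17.1 CPM in stele 1, against 751, 334, 327 and 476 CPM in the QC area (-3.07 ± 0.668, edgeR adjusted p = 0.00636), with 13.5 to 79.5 CPM in ground tissue. Within lane 8 the stele 1 difference was -3.20 (edgeR adjusted p = 0.0871). Stele 2 had a count in 2 libraries, and stele 3 had none, which allows up to 0.141 CPM.

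Some genes with many counts in the segments had few in captured tissue. Of 1039 genes higher in zone 2 with at least 100 CPM there, 31 (2.98%) stayed below 10 CPM in every captured region. Of 867 genes lower in zone 2 with at least 100 CPM in zone 1, 47 (5.42%) did, MA_460451g0010 among them. The share among all genes at that level was not counted, so these shares cannot be read as particular to either set. Zone and captured RNA were extracted by different kits, per the labels' protocols, and their part in this was not tested.

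Genes that neighbour each other by number on 1 scaffold ID, as the IDs give them, mostly shared a direction. In 565 of 1303 tested pairs both genes were called, and in 497 of these (88.0%) both moved the same way. Over all tested genes 55.7% were called, 28.1% higher and 27.6% lower in zone 2. Pairs of genes that are not neighbours were not counted. The strand setting of the counting is not given in the sources used here, so overlapping or antisense neighbours could share reads.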

How the data were processed

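Per-gene read counts of 20 zone libraries and 20 captured libraries were used as deposited by the authors, in 1 table each, with replicates kept apart. Per the submitters' processing notes the tools were Trimmomatic, STAR and HTSeq; their versions, the genome and the strand option were not given in the sources used here. The zone table held 70736 gene IDs. The 2 tables were fitted separately, each with all its groups, in edgeR 4.0.16 (R 4.3.3): filterByExpr, TMM factors, quasi-likelihood tests, Benjamini-Hochberg adjustment over all tested genes at 0.05. CPM values are TMM-scaled. A fold change is the fitted log2 ratio of the first-named group to the second. Alternatives were other scalings, no filter, DESeq2 1.42.0, a fit of the compared groups alone, a replicate block, lanes and leaving out libraries. The members and lists were chosen with earlier results of these data known. The IDs named have the largest CPM rise or fall, at a fold of at least 2 without overlap between replicates, in zone 2 against zone 1 (2 each way), and, within each set followed, in zone 4 against zone 3 and in stele 1 against the QC area (1 each way). Gene lists by function and cell type markers could not be applied to IDs without names. Replicate numbers are shared between groups. Same-numbered libraries of zones 3 and 2 deviated together from their group means (correlations 0.122 to 0.336 in 5 pairs), so there the numbers were taken as pairs, a hint from the data, since no label says what they stand for; the fit without the block stayed the main one. Total counts per library ran from 3.53 to 12 M, and intervals or floors cover counting error only. The procedure was tested on simulated counts in which few genes changed, as many upward as downward, where 55.7% were called in the data. It therefore does not test the scaling under so wide a shift.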

Additional observations from a re-analysis of the deposited data

Results flagged for a closer look

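Each sentence here names 1 library that lies apart from the other libraries of its group, with a gap to the nearest one above Dixon's 95% critical value. Of 123 groups of values looked at, 14 held such a library, each at the high end. Chance alone would give about 1 in 20 for normally distributed values, which low CPM values need not be. Where all other libraries of a group had no count, any count was flagged. Most cases were single captured libraries. In the QC area, replicate 4 was highest for MA_10427724g0030 at 43.4 CPM, with the nearest at 16.9 CPM. The same library was highest for MA_10432802g0010 at 17.6 CPM, with the nearest at 8.24 CPM, and for MA_12320g0010 at 618 CPM, with the nearest at 192 CPM. In stele 1, replicate 1 was highest for MA_10427724g0030 at 369.7 CPM, with the nearest at 87.7 CPM, and for MA_79244g0010 at 96.7 CPM, with the nearest at 17.8 CPM. Stele 1 replicate 3 had 116 CPM of MA_12320g0010, with the nearest at 21.5 CPM, and stele 1 replicate 2 had 12.6 CPM of MA_182721g0010, with the nearest at 5.46 CPM. MA_182721g0010 was also highest in replicate 4 of stele 2, at 9.47 CPM, and in replicate 4 of stele 3, at 4.83 CPM, with the nearest at 1.86 and 0.547 CPM. MA_460451g0010 had 17.4 CPM in ground tissue replicate 2, with the nearest at 4.99 CPM. It also had 0.167 CPM in stele 2 replicate 2 and 3.96 CPM in stele 3 replicate 2, where the other libraries had no count.

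Among the zones, MA_79244g0010 was highest in zone 4 replicate 1 at 1658 CPM, with the nearest at 1395 CPM. Genes lower in zone 2 held 18.9% of counts in zone 3 replicate 2, with the nearest at 17.1% and the farthest at 16.5%.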

How the results depend on the processing

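The counts of genes higher or lower in zone 2 than in zone 1 stayed within 1.5 times their value under every alternative run: 7088 to 8460 higher and 7235 to 8440 lower over scalings, filter, DESeq2, the 2 groups alone and the replicate block (7152 higher, 7235 lower). The fold changes of the 4 genes named there kept direction and call in all of these. For the 1039 and 867 genes at high level, and for the genes with no count in a zone, no alternative was run. Leaving out single libraries gave 7337 to 8023 higher and 7039 to 7633 lower. At a depth of 1767118 counts the zone 2 minus zone 1 difference in detected genes was 266, and it missed the threshold. The share of the 100 highest genes differed by -0.708 to -0.454 percentage points without single libraries, and by 0.0696 for the 10 highest genes. Genes followed with a fold of at least 2 gave smaller counts by construction: 2346 higher and 2125 lower again in zone 3; in zone 4 923 higher and 1372 lower of those higher in zone 2, and 807 higher and 318 lower of those lower in zone 2. In captured tissue that fold left 1117 higher in stele 1 and 380 higher in ground tissue than in the QC area, 1525 higher and 1175 lower in stele 2 than in stele 1, and 290 higher and 796 lower in stele 3 than in stele 2.

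Counts of genes called against the first direction moved by over 1.5 times in captured comparisons without many of the single libraries, as given beside them. Below, U stands for genes higher in zone 2 that were called higher, and D for genes lower in zone 2 that were called lower. With total counts U was 312 in stele 3 against stele 2. DESeq2 gave D of 423 in stele 1 and 225 in ground tissue against the QC area, and U of 987 in stele 3 against stele 2. A fit of the compared groups alone gave U of 1178 and D of 449 in stele 1 against the QC area, D of 431 in ground tissue against the QC area, U of 551 in stele 1 against ground tissue, U of 1439 and D of 839 in stele 2 against stele 1, and U of 341 and D of 316 in stele 3 against stele 2. With the replicate block added these were 1003, 383, 313, 521, 1070, 489, 130 and 57 in the same order, and 1102 genes lower in zone 2 were higher in zone 4 than in zone 3. Outside zones 3 and 2 the numbers were not taken as pairs: same-numbered libraries of zones 2 and 1 correlated at -0.00949 to 0.185, and 3 of 5 correlated best with their own number. For zone 3 against zone 2 the block moved no count by over 1.5 times. Lane as a covariate gave D of 92 in stele 1 against the QC area and 1308 in stele 2 against stele 1. Lane 7 alone gave U of 293 in stele 1 against ground tissue, U of 522 and D of 48 in stele 2 against stele 1, and U of 70 and D of 111 in stele 3 against stele 2. Lane 8 alone gave U of 505 in stele 1 against the QC area, D of 325 in ground tissue against the QC area and U of 196 in stele 1 against ground tissue. Without single libraries, U ran from 1253 to 2174 and D from 80 to 224 in stele 1 against the QC area, U from 388 to 606 and D from 65 to 97 in ground tissue against the QC area, and U from 575 to 1210 in stele 1 against ground tissue. D ran from 1257 to 2362 in stele 2 against stele 1, and U from 273 to 663 in stele 3 against stele 2. Some fits with fewer libraries gave fewer calls than the main fit and others gave more, and the cause was not tested.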
